A study of Mus musculus with 6 samples.

Results

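Homing and adhesion receptors hold blood progenitors in the bone marrow and steer them in and out of it. The 9 genes described here are Cxcr4, Cxcr2, Ccr2, Itga4, Itgb1, Cd44, Selplg, S1pr1 and Cd47, taken by symbol from a table of 55487 genes. They were measured in megakaryocyte-erythroid progenitors, the marrow cells that form red blood cells and platelets, taken by sorting from 8-week-old C57BL/6 mice of wild type. RNA sequencing gave 3 libraries of the control group, for which the labels name no fast, and 3 of a group fasted for 6 h. The study asked how a short fast acts on the making of red cells. The labels give no sex, no sort markers and no animal behind each library, so the tests measure the spread between these libraries, which may be partly technical. Each library was a bulk sample, in which fewer cells expressing a gene and less RNA per cell cannot be told apart.

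Progenitors stay in the marrow when CXCR4, a G protein-coupled receptor, senses the chemokine CXCL12 made by stromal cells, and when the integrin VLA-4, a pair of the Itga4 and Itgb1 products, grips VCAM-1 and fibronectin. The selectin ligand PSGL-1, encoded by Selplg, and the hyaluronan receptor CD44 serve rolling and tethering, while S1PR1 senses sphingosine 1-phosphate, which is high in blood and draws cells out of tissue. CXCR2 and CCR2 release neutrophils and monocytes towards inflammatory chemokines, and CD47 is the surface signal that tells macrophages not to engulf a cell.

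Total counts ran from 22445970 to 30246110 in control and from 12797144 to 18225191 in fasted libraries. Genes of odorant and vomeronasal receptors, silent in blood cells, still received 8.99 to 14.7 counts per kilobase of exon in control and 14.2 to 16.0 in fasted libraries. At that rate such background would make up 3.90% to 8.59% of all counts in control and 11.5% to 14.6% in fasted libraries. Markers of the labelled cell type were present, with 10 of 12 at or above 5 times the background and Car2 and Car1 the highest. The text below calls the 10641 tested genes whose mean count reached 5 times this background expressed genes. Summed over the progenitor markers, the level was 4657 to 8204 CPM (counts scaled to library size) in control and 6161 to 9152 in fasted libraries. All 16 granulocyte and monocyte markers were also at or above 5 times the background, led by Mpo, summing to 3975, 12986 and 19587 CPM in the controls and to 4999, 3509 and 2204 CPM after the fast (libraries 1, 2 and 3 each). None of 6 macrophage markers and none of 6 markers of stroma and endothelium reached that multiple, against 1 of 7 for T and NK cells and 5 of 8 for B cells. No listed marker was at 0 in all libraries.

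RefSeq promoters of GRCm38.p6 were matched for 7 of the 9 genes, all but Selplg and S1pr1. The 250 bases before the start of transcription are shown for the receptor gene with the highest level per length, Cd47, and for the 3 chemokine receptor genes, which lay at the low end. Each runs 5′ to 3′ on the strand of the gene, and capitals mark the dinucleotide CG, which reads the same on both strands. The windows are chr16:49855404-49855653 (plus strand) for Cd47, chr1:128592300-128592549 (minus strand) for Cxcr4, chr1:74153744-74153993 (plus strand) for Cxcr2 and chr9:124101933-124102182 (plus strand) for Ccr2. For Cd47, Cxcr2 and Ccr2 the RefSeq start lies inside the span that GENCODE gives the gene. The whole Cd47 window lies inside that span, as does the Ccr2 window from 124101950 on and the Cxcr2 window from 74153989 on.
Cd47: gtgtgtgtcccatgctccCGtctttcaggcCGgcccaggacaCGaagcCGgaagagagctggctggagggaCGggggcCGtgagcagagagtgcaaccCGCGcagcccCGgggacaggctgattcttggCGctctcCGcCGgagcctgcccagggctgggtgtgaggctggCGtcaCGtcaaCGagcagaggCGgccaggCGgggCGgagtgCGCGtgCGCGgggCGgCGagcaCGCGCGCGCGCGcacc
Cxcr4: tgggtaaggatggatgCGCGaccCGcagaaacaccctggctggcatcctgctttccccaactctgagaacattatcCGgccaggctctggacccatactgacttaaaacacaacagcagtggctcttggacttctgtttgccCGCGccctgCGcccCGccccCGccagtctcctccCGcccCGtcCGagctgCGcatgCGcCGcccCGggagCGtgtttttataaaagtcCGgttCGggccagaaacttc
Cxcr2: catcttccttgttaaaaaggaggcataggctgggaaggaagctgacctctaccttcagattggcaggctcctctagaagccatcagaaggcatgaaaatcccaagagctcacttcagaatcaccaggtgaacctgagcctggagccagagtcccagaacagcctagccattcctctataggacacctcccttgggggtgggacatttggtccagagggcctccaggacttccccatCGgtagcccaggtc
Ccr2: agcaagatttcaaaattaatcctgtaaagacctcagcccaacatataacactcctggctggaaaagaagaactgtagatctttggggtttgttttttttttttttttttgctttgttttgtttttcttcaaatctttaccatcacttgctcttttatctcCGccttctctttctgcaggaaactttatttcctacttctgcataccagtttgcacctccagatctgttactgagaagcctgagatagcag
Cd47 held 30 CG and Cxcr4 held 19, counts reached by 5.94% and 19.7% of the 32851 promoter windows of this length. Cxcr2 and Ccr2 held 1 CG each, and 18.8% of the windows held no more than that. The other 3 matched genes had 21 (Itgb1), 6 (Itga4) and 5 (Cd44) CG, beside a median of 6 over all windows. The letters TATAAA, searched on both strands, occurred among the 7 genes in Cxcr4 alone, and 12.4% of all windows held them. The letters AGATAA, a form of the site bound by GATA factors, occurred on either strand in Ccr2 and Cd44, and in 9.99% of all windows. Such matches describe the letters only.

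The 9 receptor genes spanned a wide range of levels in these progenitors, and the highest of them was the same in each of the 6 libraries. Per kilobase of exon (RPKM, the CPM divided by the exonic length in kilobases), Cd47 averaged 93.0 ± 10.0 (SD, n = 6 libraries) and ranked first in all 6 libraries. Selplg followed with 51.0 ± 12.8, Itgb1 with 46.1 ± 6.98 and Cd44 with 43.0 ± 9.0 RPKM (SD, n = 6 each). These 3 neighbours did not separate, since Selplg exceeded Itgb1 in 3 of 6 libraries and Itgb1 exceeded Cd44 in 3 of 6. Cd44 exceeded S1pr1 in all 6 libraries.

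The lower part of the order held S1pr1 at 14.9 ± 4.60, Itga4 at 9.45 ± 0.921, Cxcr4 at 6.28 ± 2.88, Ccr2 at 6.22 ± 2.09 and Cxcr2 at 2.67 ± 1.17 RPKM (SD, n = 6 each). S1pr1 exceeded Itga4 in 5 libraries, Itga4 exceeded Cxcr4 in 4, Cxcr4 exceeded Ccr2 in 4 and Ccr2 exceeded Cxcr2 in 5 of the 6. The homing receptors of the chemokine family thus had the 3 lowest means, and their order against each other changed between libraries.

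**Figure D1:**
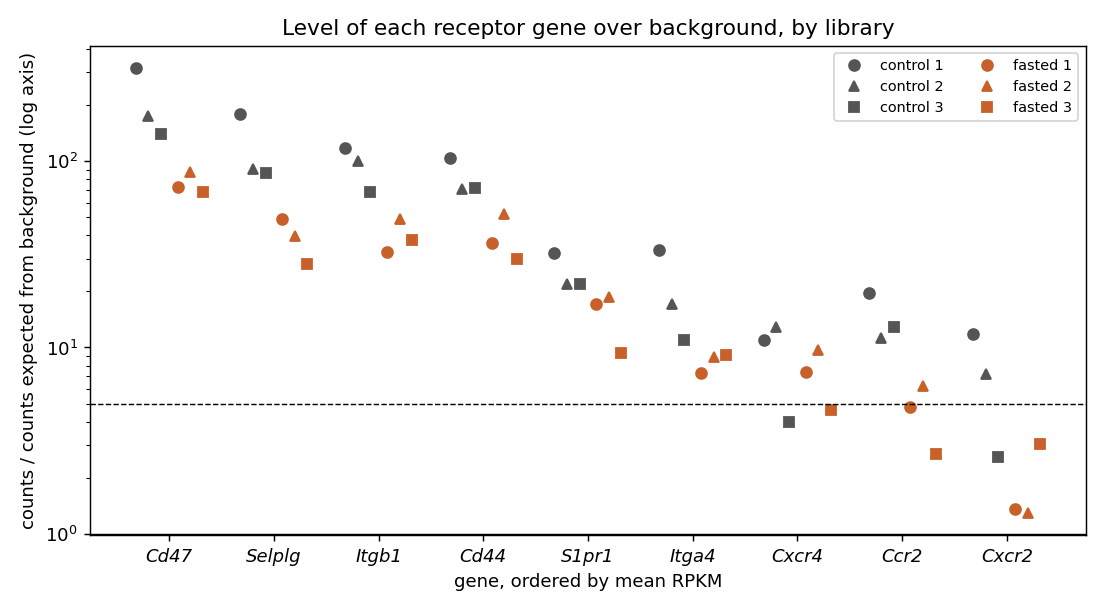
Counts of each receptor gene divided by the counts that background alone would give over its exons, in each of the 3 control (grey) and 3 fasted (orange) libraries, on a log axis, with genes ordered by mean RPKM. The dashed line marks 5 times the background, and Cxcr2 sits at 1.36 and 1.29 times the background in fasted libraries 1 and 2 while Cd47 sits between 68.7 and 316 times in all libraries.

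Background mattered for the low members. Of the 9 genes, 9 passed the expression filter and 8 had a mean count at or above 5 times the background. Nearest above that line was Cxcr4 at 7.98 times the background over all libraries. Cxcr2 lay below it at 3.94 times. In single libraries Cxcr4 fell to 3.99 times the background in control library 3 and to 4.59 times in fasted library 3, and Ccr2 fell to 4.76 times in fasted library 1 and to 2.68 times in fasted library 3.

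In the comparison of fasted with control libraries across all 36508 tested genes, edgeR's quasi-likelihood test with Benjamini-Hochberg adjustment passed 2 of the 9 receptor genes, Ccr2 and Selplg, both lower in fasted libraries. It passed 4.97% of all genes (1.15% higher, 3.82% lower) and 12.9% of the 10641 expressed genes, of which 12.9% were lower and 0.0752% higher. That split, 420 genes higher and 1393 lower, turned with the scaling. With library totals alone edgeR called 4296 genes higher and 291 lower, and with trimmed-mean (TMM) factors of the expressed genes it called 4988 higher and 256 lower, with 0 receptor genes called in either. At an unadjusted p under 0.05, 6 of the 9 receptor genes and 28.6% of all tested genes passed. With scaling and testing limited to the expressed genes, 0 of 8 receptor genes passed, and 0% of all genes did. At an unadjusted p under 0.05, edgeR then passed 0 of the 8, beside 19.8% of all genes in this fit. DESeq2 over all tested genes passed 6 of 9, all lower, and 14.5% of all genes (13.2% lower). It gave no adjusted p for 11325 of the tested genes, which count as not passed in these 2 shares. The 28.6% and 14.5% are shares of all tested genes, 25867 of them below 5 times the background, and not of the expressed genes.

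The scaling between libraries differed among these fits, as did the genes tested in the fit of expressed genes and the test in DESeq2. TMM factors from all tested genes put the median log2 fold change of the expressed genes at -0.50, and factors from those genes alone put it at 0.021. DESeq2 put it at -0.69 and library totals alone at -0.0040. With factors from all genes, 8 of the 9 receptor genes had a negative log2 fold change, and with library totals 6 did. Each receptor gene is therefore given in both fits, first over all tested genes and then in the fit of expressed genes alone. CPM values use the factors of the latter throughout. The share of background moved with the groups in these libraries, and its part in the calls was not tested.

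**Figure D2:**
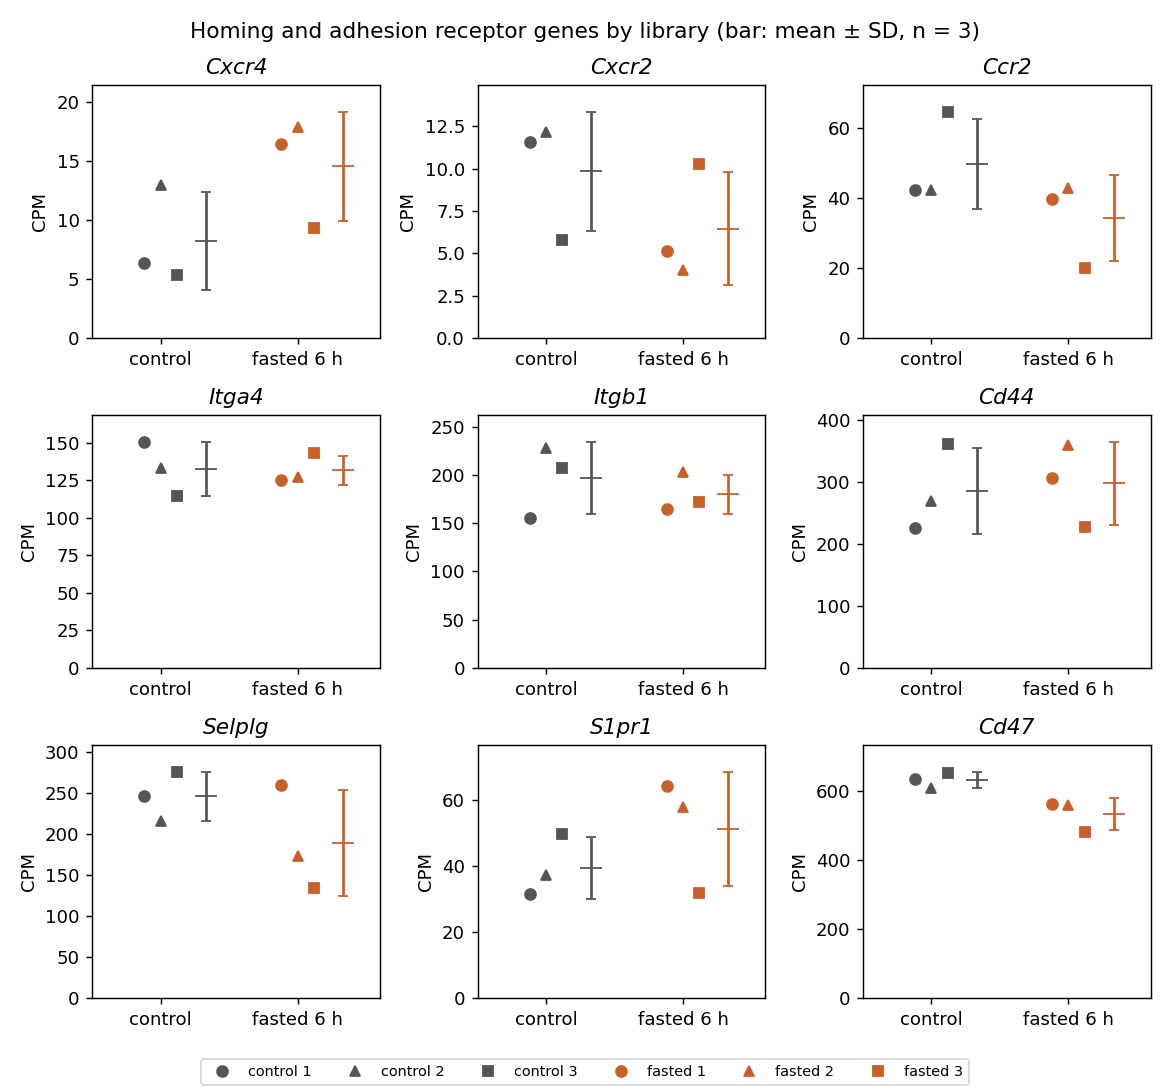
CPM of the 9 receptor genes in the 3 control (grey) and 3 fasted (orange) libraries, with the mean and SD of each group beside the points; symbols mark replicate numbers and axes start at 0. The groups overlap for each gene but Cd47, whose fasted libraries (481 to 563 CPM) lie below its control libraries (608 to 654 CPM).

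Among the chemokine receptors, Cxcr4 had the highest log2 fold change of the 9 genes over all tested genes and of the 8 in the fit of expressed genes. Cxcr2 and Ccr2 had the 2 lowest over all tested genes. Cxcr4 (ENSMUSG00000045382.6, GRCm38 chromosome 1, 128588199 to 128592293, minus strand) had 178, 305 and 106 counts in the controls (libraries 1, 2 and 3 in this order throughout) and 189, 280 and 123 counts after the fast. Scaled, these were 6.35, 12.9 and 5.36 CPM in control libraries, against 16.4, 17.9 and 9.27 CPM with fasting. Fasted libraries 1 and 2 were above every control library, and fasted library 3 lay below control library 2. The means were 8.21 CPM ± 4.11 and 14.5 CPM ± 4.60 (SD, n = 3 each). Cxcr4 had a log2 fold change of 0.33 (SE 0.36, edgeR adjusted p 0.541) over all tested genes and 0.82 (SE 0.39, edgeR adjusted p 0.274) among expressed genes. With the background subtracted from each count it was 0.87 in the latter fit. Unsubtracted, it ranged there from 0.58 without control library 3 to 1.27 without control library 2 when each library was left out in turn.

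Cxcr2 (ENSMUSG00000026180.8, chromosome 1, 74153989 to 74161246, plus strand), the neutrophil receptor, had 324, 287 and 115 counts in control libraries, against 59, 63 and 136 counts with fasting. Background alone would give 43.4 and 48.8 counts in fasted libraries 1 and 2, so these libraries held little above it. Control libraries 1 and 2 were high, at 11.5 and 12.2 CPM, and control library 3 lay with the fasted libraries at 5.81 CPM, against 5.13, 4.02 and 10.2 CPM. The log2 fold change of Cxcr2 over all tested genes was -1.19 (SE 0.37, edgeR adjusted p 0.0588; 0.0123 without control library 3), and the gene did not enter the fit of expressed genes. In 5 of the 6 fits that left out 1 library Cxcr2 was not called, with edgeR adjusted p up to 0.202 without fasted library 1. Beside the 11.5, 12.2 and 5.81 CPM of Cxcr2 in control libraries, the granulocyte and monocyte markers summed to 3975, 12986 and 19587 CPM. Beside its 5.13, 4.02 and 10.2 CPM with fasting, they summed to 4999, 3509 and 2204 CPM. That sum was led by Mpo and Elane (means of 4237 and 850 CPM over all libraries), and its relation to Cxcr2 was not tested.

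Ccr2 (ENSMUSG00000049103.14, chromosome 9, 124101950 to 124113557, plus strand), the monocyte receptor for CCL2, had 1191, 998 and 1280 counts in control libraries, against 458, 674 and 268 counts with fasting. These were 42.5, 42.3 and 64.7 CPM against 39.8, 43.0 and 20.2 CPM. Control library 3 was the highest and fasted library 3 the lowest, and the other 4 libraries lay close together. Over all tested genes the log2 fold change of Ccr2 was -1.0 (SE 0.29, edgeR adjusted p 0.0465). Among expressed genes it fell short of the threshold, at -0.54 (SE 0.30, edgeR adjusted p 0.340), and ranged from -0.76 without fasted library 2 to -0.27 without fasted library 3. Of the 6 fits that left out 1 library, 1 called Ccr2, the one without fasted library 2, and 5 did not, with edgeR adjusted p up to 0.20 without fasted library 3. The part of granulocyte and monocyte markers, lower on average in fasted libraries, in the values of Cxcr2 and Ccr2 was not tested.

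The integrin chains of VLA-4 differed little between the groups among expressed genes. Itga4 (ENSMUSG00000027009.18, chromosome 2, 79255426 to 79333123, plus strand), the alpha chain, had 4214, 3142 and 2264 counts in control libraries, against 1444, 1990 and 1896 counts with fasting. This gave 150.2, 133 and 114 CPM in control libraries, against 125, 127 and 143 CPM with fasting, with overlapping groups. Itga4 had a log2 fold change of -0.55 (SE 0.23, edgeR adjusted p 0.133; 0.0376 without control library 3) over all tested genes and -0.0091 (SE 0.14, edgeR adjusted p 0.976) among expressed genes. Over all tested genes 5 of the 6 fits that left out 1 library did not call it, with edgeR adjusted p up to 0.343 without fasted library 1. The end of Itga4 overlaps Cerkl on the other strand (79330543 to 79333123), and the handling of strand in the counting is not given in the sources used here.

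Itgb1 (ENSMUSG00000025809.15, chromosome 8, 128685654 to 128733200, plus strand), the beta chain shared by many integrins, had 4350, 5378 and 4098 counts in control libraries, against 1899, 3187 and 2278 counts with fasting. These were 155, 228 and 207 CPM against 165, 203 and 172 CPM, and all fasted values lay within the control range. For Itgb1 this meant a log2 fold change of -0.62 (SE 0.23, edgeR adjusted p 0.0898; 0.0475 without fasted library 2) over all tested genes and -0.13 (SE 0.16, edgeR adjusted p 0.683) among expressed genes. Of the 6 fits over all tested genes that left out 1 library, 5 did not call Itgb1. Their edgeR adjusted p reached 0.307 without fasted library 1.

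Of the rolling and tethering receptors, Selplg was the second receptor gene called over all tested genes, and Cd44 was not called. Selplg (ENSMUSG00000048163.13, chromosome 5, 113818536 to 113832644, minus strand) had 6932, 5099 and 5449 counts in control libraries, against 2995, 2714 and 1784 counts with fasting. Scaled, it had 247, 216 and 275 CPM in control libraries, against 260.3, 173 and 134 CPM with fasting. Fasted library 1 lay within the control range, and the other fasted libraries lay below it. On the log2 scale Selplg differed by -0.89 (SE 0.25, edgeR adjusted p 0.0465) over all tested genes and -0.38 (SE 0.23, edgeR adjusted p 0.374) among expressed genes. The latter value ranged from -0.68 without fasted library 1 to -0.18 without fasted library 3. The call was made in 1 of the 6 fits that left out 1 library, the one without control library 3, and edgeR adjusted p reached 0.202 without fasted library 3.

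Cd44 (ENSMUSG00000005087.17, chromosome 2, 102811141 to 102901665, minus strand) had 6328, 6350 and 7137 counts in control libraries, against 3525, 5629 and 3009 counts with fasting. Its values of 226, 269 and 361 CPM in control libraries, against 306, 359 and 227 CPM with fasting covered nearly the same range. The log2 fold change of Cd44 was -0.41 (SE 0.24, edgeR adjusted p 0.257) over all tested genes and 0.061 (SE 0.21, edgeR adjusted p 0.892) among expressed genes, so its sign changed with the scaling. The small nuclear RNA gene Gm23731 lies within Cd44 on the other strand.

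S1pr1 and Cd47 stood at opposite sides of 0 among expressed genes. S1pr1 (ENSMUSG00000045092.8, chromosome 3, 115710433 to 115715072, minus strand), the egress receptor, had 885, 878 and 984 counts in control libraries, against 741, 908 and 422 counts with fasting. Scaled, these were 31.5, 37.2 and 49.7 CPM against 64.4, 57.9 and 31.8 CPM. Fasted libraries 1 and 2 were the highest of the 6, and fasted library 3 was next to the lowest. The log2 fold change of S1pr1 was -0.093 (SE 0.27, edgeR adjusted p 0.830) over all tested genes and 0.38 (SE 0.28, edgeR adjusted p 0.463) among expressed genes, a change of sign with the scaling. Among expressed genes it ranged from 0.19 without fasted library 1 to 0.63 without fasted library 3.

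Cd47 (ENSMUSG00000055447.19, chromosome 16, 49800533 to 49915010, plus strand), the signal against engulfment, had 17854, 14365 and 12941 counts in control libraries, against 6481, 8763 and 6388 counts with fasting. These gave 636, 608 and 654 CPM in control libraries, against 563, 559 and 481 CPM with fasting, and every fasted library was below every control library. The means were 633 CPM ± 23.0 and 534 CPM ± 46.0 (SD, n = 3 each). Cd47 had a log2 fold change of -0.76 (SE 0.23, edgeR adjusted p 0.0525) over all tested genes and -0.24 (SE 0.12, edgeR adjusted p 0.288) among expressed genes, so the difference did not pass in either. Over all tested genes 7 of 16 alternative settings called Cd47. It passed without control library 3 (edgeR adjusted p 0.0263) and without fasted library 2 (edgeR adjusted p 0.0399), and in 4 of the 6 such fits it did not. It also passed with RLE factors (edgeR adjusted p 0.0467), upper-quartile factors (edgeR adjusted p 0.0485) and no filter on low counts (edgeR adjusted p 0.0378). The remaining calls were by limma-voom (adjusted p 0.0487) and DESeq2 (adjusted p 0.00636). Cd47 was the 1 receptor gene of 8 whose groups did not overlap on this scale, beside 27.3% of the 10641 genes, 12.9% lower and 14.4% higher. On the scale of all tested genes 5 of 9 receptor genes (Ccr2, Itga4, Itgb1, Selplg and Cd47) had every fasted library below every control library, beside 34.9% of tested genes in either direction and 15.1% lower. Of those tested genes 25867 lay below 5 times the background, with a median log2 fold change of 0.53, against -0.50 for expressed genes. The share among expressed genes on that scale is not given here.

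**Figure D3:**
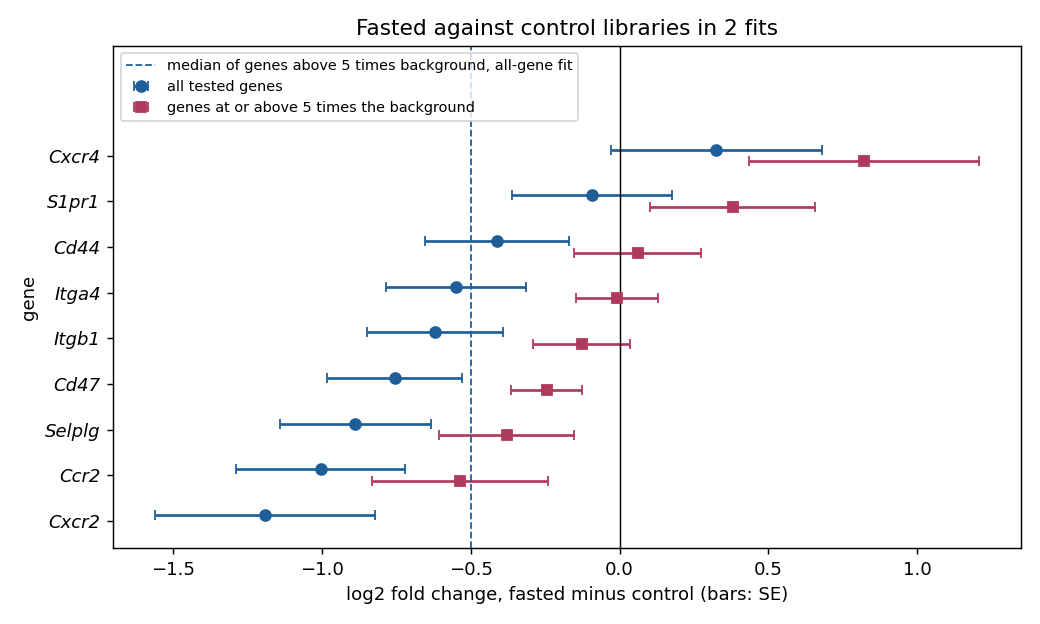
Log2 fold change, fasted minus control, of each receptor gene with its SE, over all tested genes (blue circles) and over expressed genes (red squares, labelled as at or above 5 times the background). The dashed line is the median of -0.50 of the expressed genes in the fit of all genes. Ccr2 and Selplg lie left of that line in the fit of all genes, and Cxcr4 lies at 0.82 among expressed genes.

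Set against the median of the expressed genes in the same fit, 3 receptor genes lay above it and 6 below it over all tested genes. Cxcr4 was 0.82 above the median, S1pr1 0.41 and Cd44 0.089. The differences from the median were -0.049 for Itga4, -0.12 for Itgb1, -0.26 for Cd47, -0.39 for Selplg, -0.50 for Ccr2 and -0.69 for Cxcr2. No receptor gene passed the test in both fits.

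A ratio of 2 genes within a library does not depend on the scaling between libraries, but it still includes the background. The ratio of Itga4 to Itgb1 counts per kilobase came to 0.283, 0.171 and 0.161 in control libraries and to 0.222, 0.182 and 0.243 with fasting, so the alpha chain RNA stood below the beta chain RNA in all 6. The fasted ratios lay within the control range. The log2 ratio was -2.34 ± 0.45 in control and -2.22 ± 0.21 in fasted libraries (SD, n = 3 each), a difference of 0.11 at an exact permutation p of 0.8 (two-sided, adjusted p 0.8 over the 2 ratios). Without control library 3 this difference was -0.036, and without control library 1 it was 0.37. With the background subtracted from each count it was 0.039 over all libraries.

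The ratio of Cxcr4, which retains cells, to S1pr1, which draws them out, came to 0.339, 0.585 and 0.181 in control libraries and to 0.430, 0.520 and 0.491 with fasting. Control libraries 2 and 3 held the highest and the lowest ratio, and the fasted libraries lay between them. The log2 ratio of Cxcr4 to S1pr1 was -1.60 ± 0.85 in control and -1.06 ± 0.14 in fasted libraries (SD, n = 3 each), a difference of 0.54 at an exact permutation p of 0.4 (two-sided, adjusted p 0.8). Without control library 3 this difference was 0.10, and without control library 2 it was 0.95. With the background subtracted from each count it was 0.57 over all libraries. With 3 against 3 libraries the smallest p this test allows is 0.1. The difference of 0.54 was smaller than the spread of the control libraries.

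**Figure D4:**
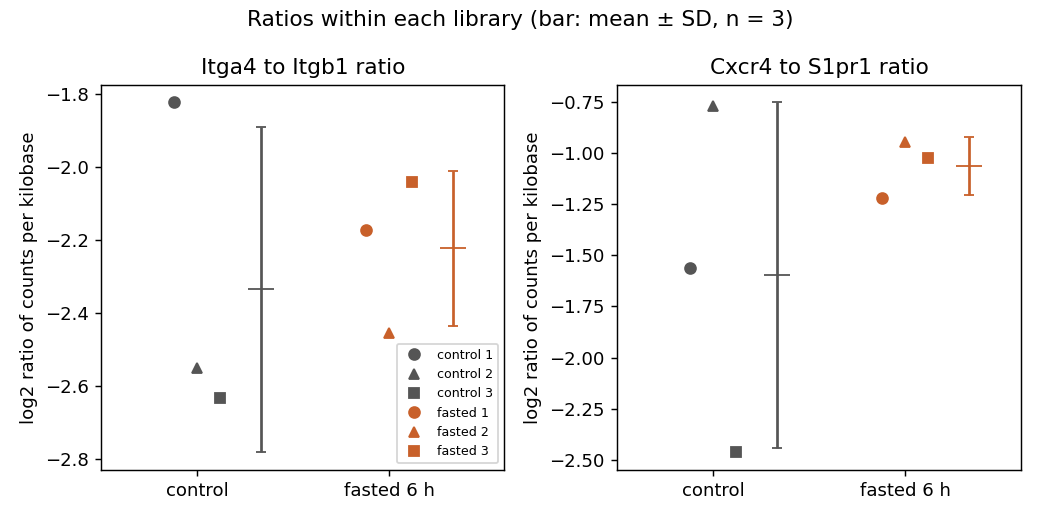
Log2 ratio of counts per kilobase within each of the 3 control (grey) and 3 fasted (orange) libraries, for Itga4 to Itgb1 (left) and Cxcr4 to S1pr1 (right), with the mean and SD beside the points. The groups overlap in both panels, and the Cxcr4 to S1pr1 ratio spreads more among control (SD 0.85) than among fasted libraries (SD 0.14).

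The genes of the same pathways were taken from 7 lists of 103 genes, of which 102 were tested. Over all tested genes 15 were called, 3 higher and 12 lower in fasted libraries. The same fit called 4.97% of all tested genes (1.15% higher, 3.82% lower) and 12.9% of expressed genes (0.0752% higher, 12.9% lower). With library totals alone, and with TMM factors of the expressed genes, 15 pathway genes were again called but 11 were higher and 4 lower. Among expressed genes edgeR called 0 of 65. Signalling genes downstream of chemokine receptors held 7 of the 15 calls, all lower, among 22 genes with a median log2 fold change of -0.73, beside -0.50 for all expressed genes. They were Rgs18, Gnb1, Rac2, Rgs19, Cdc42, Elmo1 and Gnai3. Among expressed genes 21 of the 22 were tested, with a median of -0.23 beside 0.021 for all, and 16 values were negative and 5 positive. None was called, and 6 had an unadjusted edgeR p under 0.05, all lower, beside 8.3% of all genes as lower at that p.

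Rgs18, a brake on G protein signalling in platelets and their precursors, had 171, 89.4 and 117 CPM in control libraries, against 76.1, 73.1 and 51.1 CPM with fasting. All fasted values lay below the control values, as for 12.9% of expressed genes. Rgs18 had a log2 fold change of -1.45 (SE 0.29, edgeR adjusted p 0.0277) over all tested genes and -0.91 (SE 0.25, edgeR adjusted p 0.148) among expressed genes. Gnb1, a beta subunit of the G proteins that chemokine receptors use, fell over all tested genes by 1.04 on the log2 scale (edgeR adjusted p 0.0333), with 521 CPM ± 51.1 and 359 CPM ± 57.6 (SD, n = 3 each). For Gnb1 the fit of expressed genes gave -0.54 (edgeR adjusted p 0.148). Rac2, the blood-cell GTPase that drives migration and adhesion, had -1.04 (edgeR adjusted p 0.0359) over all tested genes and -0.56 (edgeR adjusted p 0.228) among expressed genes.

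Of 24 other integrins and integrin adaptors, 1 was called over all tested genes, Itgb2, the beta chain of the leukocyte integrins, at -0.83 (SE 0.24, edgeR adjusted p 0.0465). Among expressed genes Itgb2 had -0.30 (edgeR adjusted p 0.294). Rasgrp2, which switches on the integrin regulator Rap1, had -0.82 (edgeR adjusted p 0.0505), and Itga2b, the platelet integrin alpha chain, had -1.01 (edgeR adjusted p 0.0571). The median of the list was -0.45 over all tested genes and -0.0096 over its 16 expressed genes, beside -0.50 and 0.021 for all expressed genes.

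The list of selectin ligands and their glycosylation had 2 calls among 14 genes, both lower, and a median of -0.66. Fut4, a fucosyltransferase, had -1.65 (SE 0.31, edgeR adjusted p 0.0189) at a mean of 3.96 times the background, so it is no expressed gene by this rule. It had 526, 277 and 246 counts in control libraries, against 74, 107 and 90 counts with fasting. These fasted counts were 1.28, 1.64 and 1.49 times the background. On the scale of all tested genes every fasted library was below every control library for Fut4, as for 15.1% of tested genes. Cd34, a sialomucin of progenitors, had -1.12 (edgeR adjusted p 0.0401), and -0.64 (edgeR adjusted p 0.287) among expressed genes. Fut7, the fucosyltransferase that completes selectin ligands such as PSGL-1, had -1.22 (edgeR adjusted p 0.0517), with 58.1, 30.7 and 22.3 CPM in control libraries, against 27.7, 22.0 and 21.5 with fasting. Control library 1 was high, and control library 3 lay among the fasted libraries.

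No gene of the 12 in the sphingosine 1-phosphate list was called by edgeR. Another receptor of the family, S1pr5, had 9.16, 6.61 and 8.59 CPM in control libraries, against 17.6, 11.2 and 28.3 CPM with fasting. All its fasted values lay above its control values, as for 14.4% of expressed genes. Its fold change on the log2 scale was 0.67 (SE 0.31, edgeR adjusted p 0.159) over all tested genes and 1.23 (SE 0.34, edgeR adjusted p 0.148) among expressed genes. S1pr3 had -1.01 (edgeR adjusted p 0.125) below 5 times the background. Sphk2, a kinase that makes the ligand, had -0.53 (edgeR adjusted p 0.158), and 0.015 (edgeR adjusted p 0.970) among expressed genes.

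Of 7 genes around Cd47, 1 was called over all tested genes. Calr, whose product at the cell surface promotes engulfment, had -1.08 (SE 0.24, edgeR adjusted p 0.0326), and -0.61 (edgeR adjusted p 0.220) among expressed genes. Sirpa, the macrophage receptor for CD47, had -0.83 (edgeR adjusted p 0.0602). Cd36, a receptor for thrombospondin and lipids, had 0.69 (edgeR adjusted p 0.126) at 4.27 times the background.

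All 10 other chemokine receptor genes lay below 5 times the background. Of these, Cxcr6 (1.71, edgeR adjusted p 0.0277) and Ccr9 (0.98, edgeR adjusted p 0.0408) were called higher and Cx3cr1, a monocyte receptor, lower (-1.22, edgeR adjusted p 0.0385) in fasted libraries. Cxcr6 had 35, 57 and 43 counts in control libraries, against 88, 124 and 152 counts with fasting, at a mean of 3.16 times the background. Genes below that multiple had a median of 0.53 over all tested genes. Among 14 genes listed as niche ligands, 13 were tested and 4 reached 5 times the background. Has1, a hyaluronan synthase, was called higher (1.33, edgeR adjusted p 0.0465) at 1.22 times the background. Cxcl12, the ligand of CXCR4, had 0.54 (edgeR adjusted p 0.227) at 1.75 times the background, and Selp had -0.71 (edgeR adjusted p 0.172) at 4.25 times. The cells that gave these RNAs are not known from these data.

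**Figure D5:**
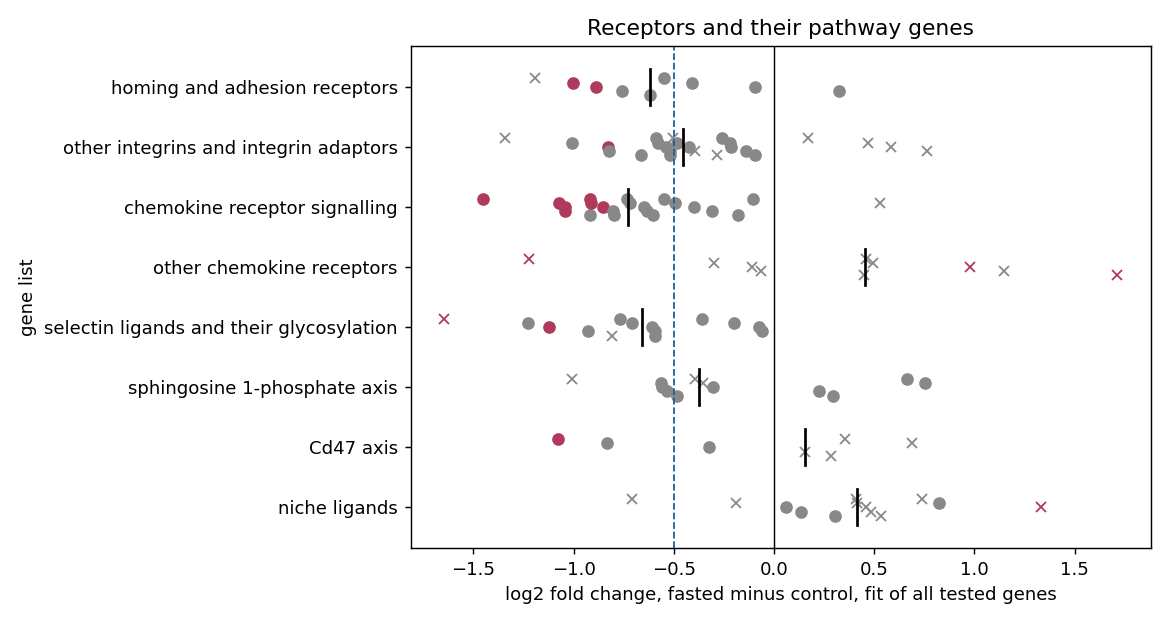
Log2 fold change, fasted minus control, over all tested genes for the 9 receptor genes and the 7 lists; circles are expressed genes, crosses are genes below 5 times the background, red marks an edgeR adjusted p under 0.05, and black bars are list medians. The dashed line is the median of -0.50 of the expressed genes, and the 3 red points right of 0 are crosses.

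Over the 6 libraries, the genes whose log2 CPM was most like that of Cxcr4 among the 10641 genes were Hist1h4m (Pearson r = 0.988), Sys1 (r = 0.984) and Axin1 (r = 0.979). These values describe 6 libraries that share a depth and background difference between the groups, and they were picked as the highest of many. The log2 fold changes of these genes among expressed genes were 1.05, 0.19 and 0.27, with edgeR adjusted p of 0.306, 0.538 and 0.459.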

How the data were processed

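Polyadenylated RNA of sorted mouse progenitors was sequenced in 6 libraries. The authors deposited raw counts per gene with exonic lengths. The submitters' processing notes name HISAT2 2.2.1, featureCounts 2.0.1 and GRCm38. Settings, strand and annotation are not given in the sources used here. The exonic length of each gene is another value that the authors deposited. Identifiers were matched to GENCODE M21 (GRCm38), 54435 with and 55227 without version; all 9 receptor genes matched with version.

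After filterByExpr and TMM scaling, group was tested by the quasi-likelihood functions of edgeR 4.0.16 (R 4.3.3), with robust dispersion estimates and no covariate. A gene was called at a Benjamini-Hochberg adjusted p under 0.05 over all genes tested. SE was the log2 fold change divided by the square root of F. Background was the summed counts over the summed length of 1466 protein-coding odorant and vomeronasal receptor genes. The fit of expressed genes kept genes with a mean count of at least 5 times that rate times their length. Ratios were tested with exact permutations in Python 3.11.15. Correlations with Cxcr4 used log2(CPM + 0.5).

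Pathway genes given with their values were the 3 of each list with the smallest p over all tested genes. Rgs19, Cdc42, Elmo1 and Gnai3 were named besides because they were called. The members and lists were chosen with earlier results of these data known. On simulated counts (dispersion 0.1, 200 genes changed, 4-fold), 178 of 198 changed genes tested were called over all 35769 genes (89.9%) and 188 of 198 in the fit of 10591 expressed genes (94.9%). All simulated libraries shared the same mean profile, with no background difference between the groups. These rates therefore do not give the power for smaller changes in the real libraries. Alternatives were DESeq2 1.42.0, limma-voom (limma 3.58.1), other factors, filters and background multiples, a replicate block and leaving out each library.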

Additional observations from a re-analysis of the deposited data

How the results depend on the processing

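Of 9 receptor genes, edgeR called 2, of all genes 1813 and of pathway genes 15. Called receptor genes, all genes and pathway genes numbered 4, 2973 and 24 with RLE factors, 6, 5301 and 41 with DESeq2, 4, 2849 and 23 with no filter on low counts, 0, 558 and 5 without robust settings, and 5, 5723 and 33 at an adjusted p under 0.1. With library totals alone 0 receptor genes and 4587 genes (4296 higher, 291 lower) were called, and with TMM factors taken from the expressed genes alone 0 and 5244 (4988 higher, 256 lower), against 420 higher and 1393 lower with TMM factors of all tested genes. Both settings called 15 pathway genes, 11 higher and 4 lower. Leaving out each library in turn gave 0 to 4 receptor genes (4 without control library 3), 7 to 5379 genes (7 without fasted library 3) and 0 to 30 pathway genes. Upper-quartile factors, limma-voom and a filter at a mean of 10 counts left the 3 counts within 1.5 times.

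In the fit of expressed genes 0 receptor genes were called at background multiples of 2 and 10, after background subtraction, at an adjusted p under 0.1 and without each library. At a multiple of 2 the test called 1624 genes and 12 pathway genes, at an adjusted p under 0.1 it called 2 genes, and without each library 0 to 3 genes.

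The sign of some log2 fold changes changed. With library totals alone and with TMM factors of the expressed genes, Cd44 had 0.037 and 0.061 and S1pr1 had 0.36 and 0.38. In the fit of expressed genes Itga4 had 0.072 at a background multiple of 10 and Cd44 had -0.25 at a multiple of 2. Without each library in turn, Cxcr4 ranged from -0.0038 to 0.77 and S1pr1 from -0.33 to 0.17 over all tested genes, and Itga4 from -0.13 to 0.090 and Cd44 from -0.12 to 0.25 among expressed genes. The difference in the log2 ratio of Itga4 to Itgb1 ranged from -0.036 to 0.37 when each library was left out.

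The labels do not say whether libraries of the same replicate number were paired. Deviations from the group means correlated at -0.17, 0.14 and -0.33 between same-numbered libraries over the 10641 genes. Not every library correlated best with its own number, but with 3 libraries per group these values cannot decide on a pairing. With the replicate number as a block, 0 receptor genes, 146 genes and 3 pathway genes were called over all tested genes, and 0 genes among expressed genes. In the paired comparison of same-numbered libraries the log2 ratios differed by 0.11 (Itga4 to Itgb1) and 0.54 (Cxcr4 to S1pr1), which equal the unpaired differences by construction. Low counts of Cxcr2 and Cxcr4 limit what can be seen of them.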
